A study of Xenopus tropicalis with 8 samples.

Results

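Chromatin remodelling and histone modification genes were followed in embryos of the western clawed frog, Xenopus tropicalis. Genes were taken by the first letters of their symbols: smarc, hdac, kdm, kmt, setd, chd, prdm, brd, cbx, phf, sirt, ing, ezh, suv, dnmt, tet, baz and kat. RefSeq holds 152 frog genes with these 18 prefixes, of which 49 had a named probe on the array. A gene was kept if the scanner software scored its probe as clearly over background throughout either group (4 of 4 arrays), which left 40 genes from 15 prefixes among 3436 named genes and 20289 tested probes. Each of the 49 genes was read by a single named probe, so no choice between probes was needed.

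Embryos had been exposed to Disperse Yellow 7 (DY7), an azo dye for synthetic textiles, at 887 ppm during development (4 samples), and the controls were untreated embryos (4 samples). The labels give stages 12 to 46 for both groups and name neither a vehicle for the controls nor the medium of exposure. The design text counts 4 exposed groups for each treatment, but neither it nor the labels say how many embryos each held or whether clutches differed. The p-values therefore measure only the spread between these samples. Total RNA of each sample was hybridised to a single-colour Agilent array.

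DNA is wrapped around histone proteins into nucleosomes. Remodelling enzymes use ATP to slide, evict or space nucleosomes, other enzymes add or remove acetyl and methyl groups on histone tails, and reader proteins with bromodomains, chromodomains or PHD fingers bind those marks. Methylation of DNA itself is laid down by Dnmt enzymes and oxidised by Tet enzymes, and in vertebrate embryos these systems are known for keeping cell-type gene programmes on or off.

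The arrays lay on 2 slides, each with 2 DY7 and 2 control samples. The 75th percentile of the probe signal, to which every array was scaled, ran from 126 to 202 on DY7 arrays and from 162 to 327 on control arrays. Probes well above background made up 64.0% to 73.5% of probes on DY7 arrays and 51.6% to 75.9% on control arrays. The array of control 2 stood lowest at 51.6%. Levels below are log2 processed intensity relative to the array's 75th percentile, and fold changes are DY7 minus control on that log2 scale.

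Smarca1, an imitation-switch type ATPase that spaces nucleosomes, was 2.21-fold lower in DY7 embryos. Lower levels were also called for brd8, a bromodomain subunit of the Tip60 acetyltransferase complex, for hdac5, a class IIa histone deacetylase, for the chromodomain remodeller chd7 and for kdm3b, a histone demethylase. A single member was called higher, prdm15, a zinc finger transcription factor with a PR domain, which passed the background filter through the DY7 group. In all, 6 of 40 members passed limma's adjusted p under 0.05 over all tested probes, 1 higher and 5 lower, or 15.0%. Over all tested probes the share was 14.1% (9.06% higher and 5.07% lower), and over all named genes 14.3% (9.11% higher and 5.24% lower). The share of members that passed was near both. In whole embryos, fewer cells of a type and less RNA per cell cannot be told apart.

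As many members lay below 0 as above it. Their median log2 fold change was 0.0045, against 0.06 over all tested probes, and 20 of 40 lay below 0, against 43.2% of all probes. The middle 80% of members ran from -0.45 to 0.28, and the middle 80% of all probes from -0.36 to 0.56. An unadjusted p under 0.05 was reached by 13 members (32.5%), against 33.6% of all probes. The arrays of the 2 groups did not overlap for 9 members (22.5%), 2 with DY7 higher and 7 with DY7 lower. Among all probes they did not overlap for 21.6% (12.7% with DY7 higher, 8.86% with DY7 lower). The members with DY7 higher, prdm15 and dnmt1, had passed the background filter only through the DY7 group, where they were higher. Among members above background on all 8 arrays, 19 of 34 lay below 0.

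**Figure D1:**
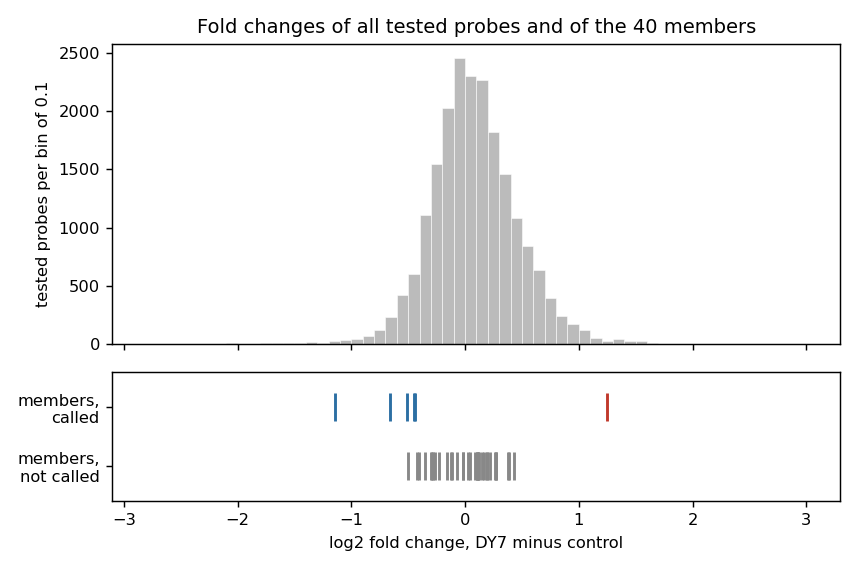
Upper panel: number of tested probes (y axis) in bins of log2 fold change, DY7 minus control (x axis). Lower panel: the 40 members on the same axis, those past the threshold above (5 lower in blue, 1 higher in red; chd7 and kdm3b nearly coincide) and the other 34 below; most members lie between -0.5 and 0.5, inside the bulk of the probes.

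The split between rises and falls depended on scaling. Over all probes 1839 were called higher and 1028 lower, against 1035 and 1330 with scaling to the array median and 34 and 685 without scaling. Among members the calls were 1 higher and 5 lower, against 1 and 4 with the median and 0 and 2 without scaling. Without scaling limma gave genes such as brd8, chd2 and baz1a the same SE of 0.34. A call there thus followed the fold change and not the spread of the gene itself. The median log2 fold change of all probes was 0.06, -0.06 with the median and -0.42 without scaling. With quantile normalization 24 of 40 members lay below 0, and with scaling to the median 27. Without scaling 39 of 40 members lay below 0, all but prdm15, so each positive fold change of an uncalled member below turned negative there. The 5 members called lower had negative fold changes, and prdm15 a positive one, in each of these settings.

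Pairing DY7 and control samples by replicate number raised the calls to 9 members, 1 higher and 8 lower, and to 25.3% of all probes. The members added were kat2b, chd2 and kmt5b, with adjusted p of 0.0302, 0.0341 and 0.0341 in limma. With slide as a block 4 members were called, without chd7 and kdm3b, beside 13.5% of all probes. A fit on named genes only called 4 members, without hdac5 and kdm3b, beside 13.7% of named genes. With normexp background correction 2 members were called, smarca1 and kdm3b, beside 9.37% of all probes.

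The calls of smarca1 and of the other 5 members differed in how they held when arrays were left out. Smarca1 passed whichever of the 8 arrays was left out. Without DY7 2, DY7 3, control 1 or control 4 it was the only member called, and the share called among all probes was then 5.38%, 5.87%, 5.65% and 5.39%. Without DY7 1, DY7 4, control 2 or control 3 the calls numbered 4, 7, 7 and 2 of 40 members. The shares called among all probes were then 10.4%, 15.3%, 16.4% and 12.5%. Brd8, chd7 and kdm3b lost theirs without DY7 2, DY7 3, control 1, control 3 or control 4, at fold changes of -0.64 to -0.53 for brd8, -0.47 to -0.35 for chd7 and -0.47 to -0.37 for kdm3b. Hdac5 was called only without DY7 4 (-0.56), and stood between -0.56 and -0.36 without any other array. The rise of prdm15 was called without DY7 4, control 2 or control 3, and lay between 1.14 and 1.42 in the 5 fits where it was not.

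**Figure D2:**
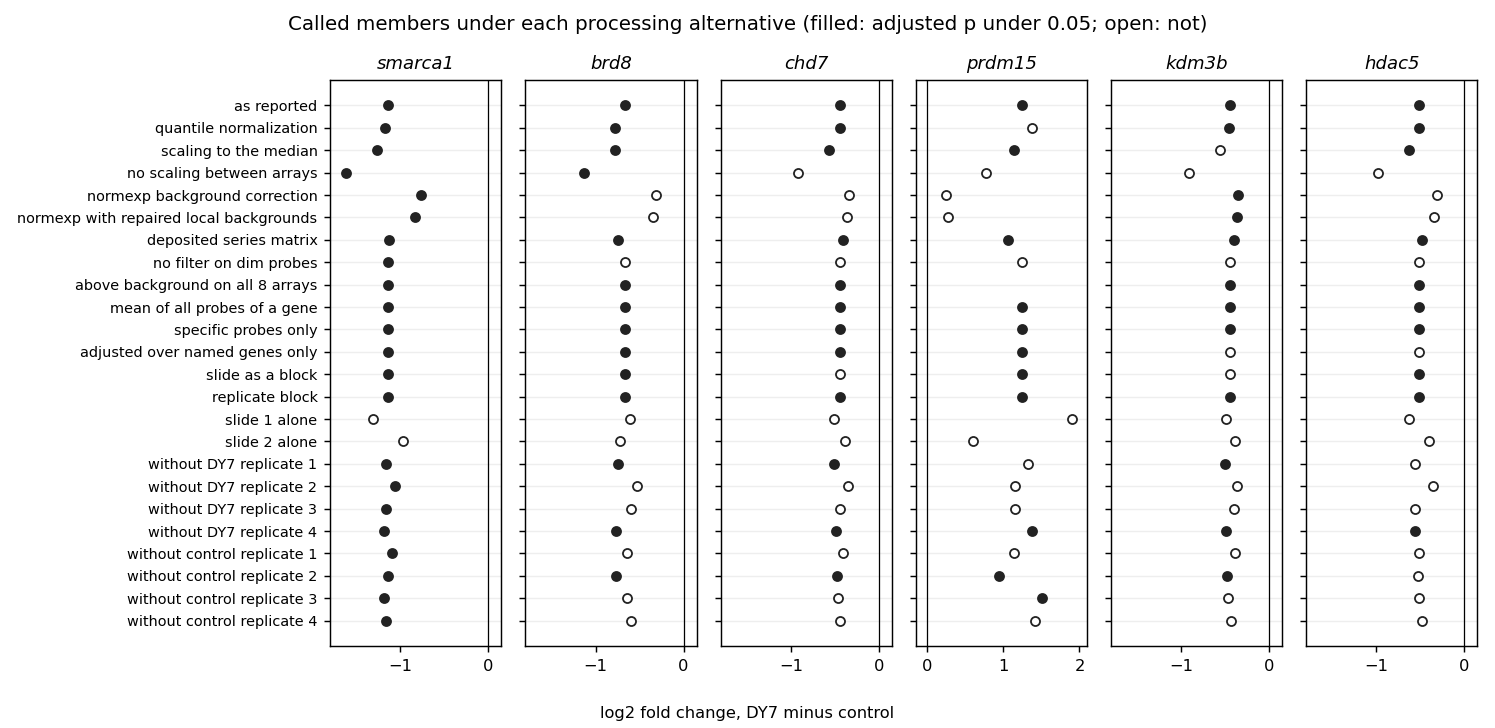
Log2 fold change, DY7 minus control (x axis), of each called member under each way of processing or subset of arrays (y axis); filled points passed the adjusted p under 0.05, open points did not, and prdm15 has its own range. No point crosses 0, and smarca1 is filled in all but the single slides, which hold 2 arrays a group.

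Among the catalytic and core subunits named smarc, 1 of 5 measured members fell and none rose. Of all named genes 5.24% were called lower and 9.11% higher, and no family was tested against these shares. Smarca1 lay at -0.99, -1.30, -1.01 and -0.92 on DY7 arrays 1 to 4, against 0.24, 0.11, -0.02 and 0.04 on control arrays 1 to 4. Every DY7 array was far below every control array. The log2 fold change was -1.15 ± 0.11 (SE, n = 4 arrays per group), a 2.21-fold lower level, with a limma adjusted p of 0.00120. Within slide 1 the difference was -1.32 and within slide 2 it was -0.97. Leaving out 1 array at a time moved it between -1.19 and -1.07, with adjusted p from 0.00275 to 0.00729.

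Its relatives of the SWI/SNF remodelling complex did not pass the test. Smarca2, the Brahma-type ATPase, stood at -0.16 (95% interval -0.45 to 0.14), and the scaffold subunit smarcc1 at 0.11 (-0.20 to 0.41). Smarcc2, the paralogous scaffold, stood at -0.28 (-0.55 to -0.01, adjusted p = 0.132 in limma), and its DY7 arrays, between -0.55 and -0.13, lay just below the controls, between -0.13 and 0.11, with DY7 4 and control 2 nearly equal. The accessory subunit smarcd2 stood at -0.12 (-0.40 to 0.16). The intervals of these 4 genes exclude a fall as large as the -1.15 of smarca1.

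Baz proteins partner imitation-switch ATPases such as Smarca1 in mammals, and none of the 4 frog genes was called. Baz1a, the Acf1 subunit, stood at 0.12 (-0.19 to 0.43), and baz1b, the Williams syndrome factor, at 0.11 (-0.17 to 0.39). Baz2a, the Tip5 subunit of a complex that silences ribosomal genes, stood at -0.23 (-0.58 to 0.12). Baz2b, read by a probe that the array design names as cross-hybridising, stood at -0.35 ± 0.14 (SE, n = 4, limma adjusted p = 0.115). It passed without control 2, at -0.46 (adjusted p = 0.0365 in limma), and lay between -0.43 and -0.29 without any other array.

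Of the 4 chromodomain helicases measured, chd7 fell, beside 5.24% called lower among all named genes. Chd7, whose human gene is mutated in CHARGE syndrome, lay at 0.32, -0.17, 0.09 and 0.22 on DY7 arrays and at 0.68, 0.48, 0.49 and 0.59 on control arrays. The highest DY7 array stayed below the lowest control array. The log2 fold change was -0.45 ± 0.12 (SE, n = 4, limma adjusted p = 0.0413), -0.51 within slide 1 and -0.39 within slide 2. Chd2 was close to it in size, at -0.42 ± 0.14, with an adjusted p of 0.0750 in limma. Its highest DY7 arrays, -0.34 and -0.39, reached into the control range of -0.39 to -0.03. Chd2 passed without control 2, at -0.50 (adjusted p = 0.0415 in limma), with the deposited series matrix, at -0.41 (adjusted p = 0.0473), and with the replicate number as a block. Chd3, an ATPase of the NuRD deacetylase complex, stood at 0.20 (-0.09 to 0.48).

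Chd6 had the widest interval of all members, -1.49 to 0.49 around -0.50, and control 2 stood apart. It lay between -2.72 and -2.44 on DY7 arrays and at -2.94, -0.54, -2.36 and -2.64 on control arrays 1 to 4. Its probe is printed on a pair of spots, which read 2.15 and -3.22 on control 2 and differed by at most 0.44 on every other array. The scanner software put no outlier flag on either spot. Without control 2 the fold change of chd6 was 0.028.

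**Figure D3:**
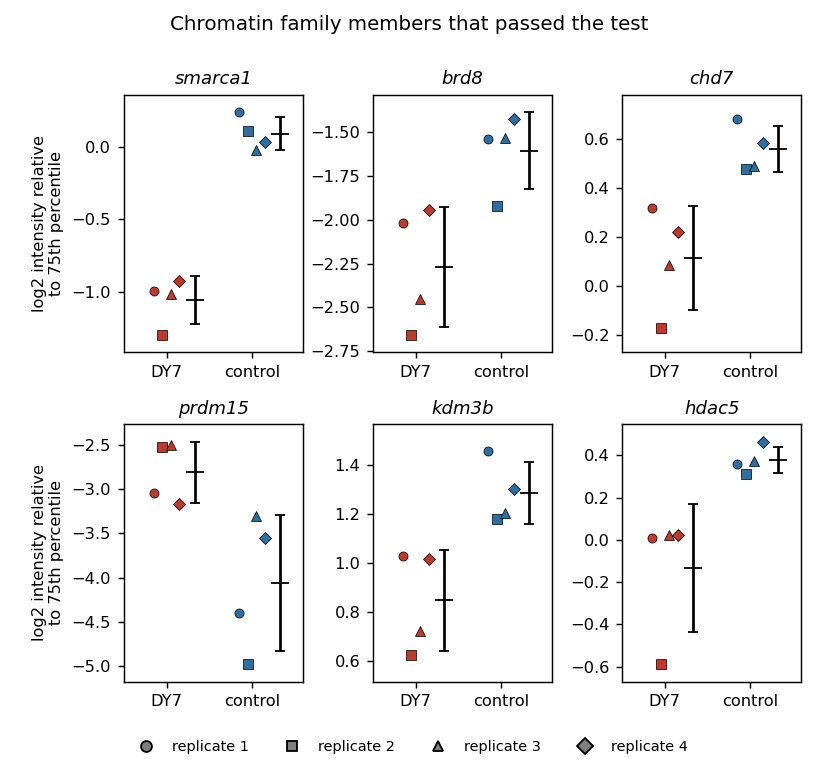
Level of each called member on each array, as log2 intensity relative to the array's 75th percentile (y axis, a separate range for each gene), with DY7 in red on the left and control in blue on the right; symbols mark replicate numbers, and bars give mean ± SD of 4 arrays. The groups do not overlap for any of the 6 genes, which were picked by p on these same arrays (21.6% of all tested probes do not overlap). The gap is widest against the spread for smarca1, and DY7 2 is the lowest array for all 5 genes that fell.

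Among genes with acetylation-related prefixes, the single brd gene and 1 of 4 hdac genes fell. Neither of the 2 sirt genes nor the single kat gene was called. Over all named genes 14.3% were called, 9.11% higher and 5.24% lower. Whether these few genes differ from that was not tested. Brd8 lay at -2.02, -2.66, -2.45 and -1.94 on DY7 arrays and at -1.54, -1.92, -1.53 and -1.43 on control arrays. The groups only just parted, with DY7 4 at -1.94 beside control 2 at -1.92. Its log2 fold change was -0.66 ± 0.18 (SE, n = 4, limma adjusted p = 0.0403), a 1.58-fold lower level. The difference was -0.61 within slide 1 and -0.72 within slide 2.

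Hdac5 shuttles between nucleus and cytoplasm and represses Mef2 target genes in mammals. It lay at 0.01, -0.59, 0.02 and 0.02 on DY7 arrays and at 0.36, 0.31, 0.37 and 0.46 on control arrays. The 3 DY7 arrays other than DY7 2 agreed closely, and DY7 2 stood far below them. The log2 fold change was -0.51 ± 0.15 (SE, n = 4, limma adjusted p = 0.0480). Without DY7 2 it was -0.36 and not called (adjusted p = 0.0637 in limma). Within slides it was -0.62 and -0.40.

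The other deacetylases were not called. Hdac10, a polyamine deacetylase, stood at -0.29 (95% interval -0.55 to -0.03, limma adjusted p = 0.114). The class IIa relatives of hdac5 stood at 0.02 for hdac7 on a cross-hybridising probe (-0.19 to 0.24) and at 0.11 for hdac9 (-0.32 to 0.55), which turned to -0.035 without control 2 and to -0.068 with quantile normalization. Both intervals lay above the -0.51 of hdac5 but overlapped its own 95% interval of -0.84 to -0.18. Among the NAD-dependent sirtuins, sirt2, a mainly cytosolic deacetylase, stood at -0.13 (-0.33 to 0.08) and the mitochondrial sirt4 on a cross-hybridising probe at -0.02 (-0.30 to 0.26).

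Kat2b, also called Pcaf, was the single measured gene with the kat prefix that passed the background filter. It lay at -0.47, -0.75, -0.58 and -0.22 on DY7 arrays and at -0.15, -0.16, -0.08 and 0.00 on control arrays. The groups did not overlap, and the log2 fold change of -0.40 ± 0.12 (SE, n = 4) had an adjusted p of 0.0572 in limma. It passed with quantile normalization at -0.43, with the deposited series matrix at -0.38, among probes above background on all 8 arrays, without DY7 4 at -0.50 and with the replicate number as a block. Without any other array it lay between -0.43 and -0.32 and was not called.

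Histone demethylases gave 1 fall among 5 measured genes, beside 5.24% called lower among all named genes. Kdm3b and kdm3a are related enzymes that remove repressive methyl groups from histone H3. Kdm3b lay at 1.03, 0.62, 0.72 and 1.02 on DY7 arrays, below the 1.46, 1.18, 1.20 and 1.30 of the control arrays. Its log2 fold change was -0.44 ± 0.13 (SE, n = 4, limma adjusted p = 0.0461), with -0.50 within slide 1 and -0.38 within slide 2. Kdm3a, on a cross-hybridising probe, stood on the other side of 0 at 0.37 (-0.05 to 0.80, limma adjusted p = 0.193), 0.29 without control 2 and -0.10 without scaling. The demethylases of histone H3 kdm1b, kdm4b and kdm5b stood at 0.11, 0.17 and 0.15, with intervals that all spanned 0.

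Histone methyltransferases were represented by few genes. Kmt5b, which methylates histone H4, lay at -0.27, -0.52, -0.44 and -0.18 on DY7 arrays and at 0.05, -0.26, -0.06 and 0.08 on control arrays. Only control 2 reached into the DY7 range. The fold change of -0.30 ± 0.12 (SE, n = 4) was not called (limma adjusted p = 0.110). Without control 2 it was -0.37 (adjusted p = 0.0552 in limma). Of the SET domain genes, setd5 stood at -0.02 (-0.34 to 0.31) and setd9 at 0.27 (-0.27 to 0.80), or 0.11 without control 2.

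Among 4 PR domain genes prdm15 was called higher and none lower, beside 9.11% higher and 5.24% lower among all named genes. Prdm15 passed the background filter through the DY7 group, where it is higher, and was not tested among probes above background on all 8 arrays. There 6 of 34 members were called, 0 higher and 6 lower. Of all probes in that setting 19% were called, and 58.6% of those calls were higher. Prdm15 lay at -3.04, -2.53, -2.50 and -3.17 on DY7 arrays and at -4.40, -4.98, -3.31 and -3.55 on control arrays. It was a dim probe, not well above background on control 2, and the control arrays of slide 2 stood close to the DY7 arrays. Its log2 fold change was 1.25 ± 0.35 (SE, n = 4, limma adjusted p = 0.0420). The difference was 1.91 within slide 1 and 0.60 within slide 2, and 0.94 without control 2 (adjusted p = 0.0462 in limma). With quantile normalization it was 1.38 and not called (adjusted p = 0.0548), and with normexp background correction, which adds an offset, 0.24 and not called (adjusted p = 0.0700).

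Other PR domain genes act in cell fate in vertebrate embryos. Prdm1, or Blimp1, stood at -0.26 (95% interval -0.59 to 0.07), and prdm14 at 0.09 (-0.17 to 0.36). Neither was called.

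Neither the cbx gene nor the 3 phf genes, which carry chromodomains or PHD fingers, gave a call. The Polycomb protein gene cbx2, on a cross-hybridising probe, stood at -0.07 (-0.38 to 0.24). The PHD finger genes phf20, phf21a and phf21b stood at 0.04, 0.19 and 0.27, with intervals from -0.35 to 0.67 over the 3 genes.

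The 3 genes of DNA methylation had positive fold changes that did not pass the test. Dnmt1, the maintenance methyltransferase of dividing cells, lay at -1.67, -1.72, -1.82 and -1.47 on DY7 arrays and at -2.29, -2.41, -1.84 and -1.86 on control arrays. The groups did not overlap, though DY7 3 at -1.82 and control 3 at -1.84 nearly met, and control 2 was not well above background. The fold change was 0.43 ± 0.15 (SE, n = 4, limma adjusted p = 0.0851), 0.66 within slide 1, 0.21 within slide 2 and 0.33 without control 2. Dnmt3a, a de novo methyltransferase, stood at 0.27 (-0.12 to 0.66), and tet2, a methylcytosine dioxygenase, at 0.39 (-0.19 to 0.97). Without scaling the fold changes of dnmt1, dnmt3a and tet2 were -0.040, -0.21 and -0.086, and within slide 2 alone that of tet2 was -0.024.

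**Figure D4:**
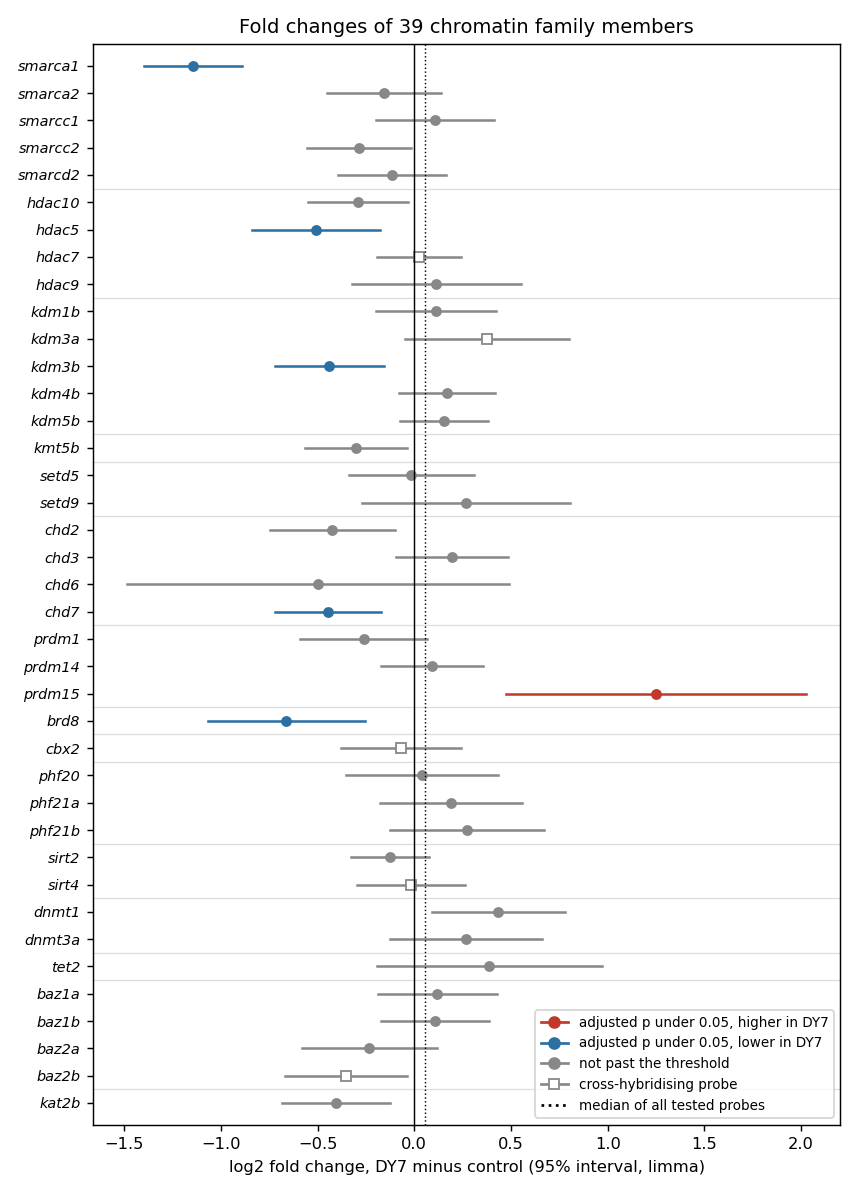
Log2 fold change, DY7 minus control, of 39 of the 40 members (x axis; 1 gene a row, grouped by prefix), with 95% intervals from limma; colour marks the call, open squares mark cross-hybridising probes, and the dotted line is the median of all tested probes at 0.06. Smarca1 stands apart at -1.15 and prdm15 at 1.25 with a wide interval, and most other intervals span 0.

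The remaining 9 genes of these prefixes on the array did not reach the background filter in either group. Kdm1a, on a cross-hybridising probe, was well above background on 3 of 4 DY7 and 3 of 4 control arrays, and kdm7a on 2 and 2. Phf1, prdm8, prdm13 and sirt3.2 were above background on 0 arrays, prdm6 on 1 array of each group, kmt2b on 1 control array and katnal1 on 1 DY7 array. Katnal1 carries the kat prefix but encodes a katanin, which cuts microtubules and is no chromatin protein. No named probe was found for genes with the prefixes ing, ezh or suv.

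Of the 40 members, 34 were well above background on all 8 arrays. The other 6 (hdac9, kdm3a, setd9, chd6, prdm15 and dnmt1) missed it on control 2 alone. Such genes passed the filter through the DY7 group. Specific probes read 35 members and cross-hybridising probes 5, and all 6 called members were read by specific probes. The median SE of a member's fold change was 0.138, against 0.135 over all tested probes.

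Partners of these families were taken from 13 lists of 308 symbols, of which 66 genes were measured that were not members. Of these, 13 passed the test, 9 higher and 4 lower (19.7%, against 14.3% of named genes), and the median log2 fold change of the 66 was 0.11, against 0.08 over all named genes. Because the lists were chosen with earlier results of these data known, these shares do not test whether partners differ from other genes. With the replicate number as a block 19 of the 66 genes passed, 13 higher and 6 lower, where 25.3% of all probes passed. Ruvbl1, an ATPase shared by the Ino80, Srcap and Tip60 complexes, rose: it lay at 1.13, 1.43, 1.096 and 0.80 on DY7 arrays and at 0.07, 0.14, 0.24 and -0.04 on control arrays. The groups were far apart, and the log2 fold change was 1.01 ± 0.14 (SE, n = 4, limma adjusted p = 0.00429). Unscaled, where the SE was shared between genes, it was 0.54 and not called. Vps72, a histone-variant chaperone of the Srcap and Tip60 complexes, rose on a cross-hybridising probe by 0.90 ± 0.21 (SE, n = 4), with DY7 4 at -1.54 just inside the control range of -2.16 to -1.52.

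Deacetylase corepressors gave calls in both directions, 1 higher and 2 lower of 10. Among all named genes 9.11% were called higher and 5.24% lower. Sin3a, the scaffold of a histone deacetylase complex, fell to -1.12, -1.44, -1.21 and -0.998 on DY7 arrays, against -0.44, -0.74, -0.49 and -0.45 on control arrays. The groups did not overlap, and the fold change was -0.66 ± 0.12 (SE, n = 4, limma adjusted p = 0.0123), with -0.69 within slide 1 and -0.63 within slide 2. Arid4a, a partner of Sin3a, fell by 0.42 ± 0.11 (SE, n = 4). Rcor1, the CoRest scaffold, rose by 0.51 ± 0.13 (SE, n = 4) on a probe above background on 4 DY7 and 3 control arrays. It thus passed the background filter through the DY7 group, where it was higher. Across the processing alternatives its fold change ran from 0.037 to 0.51. It was not called without scaling, with normexp background correction, with repaired local backgrounds or with no filter on dim probes.

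Histone chaperones gave 2 rises among 6 genes, beside 9.11% called higher among all named genes. Whether these few genes differ from that was not tested. Hira, which deposits a histone H3 variant outside replication, rose by 0.40 ± 0.09, and chaf1a, which deposits histones behind the replication fork, by 0.44 ± 0.12 (SE, n = 4 each). The call of chaf1a was lost whichever of the 8 arrays was left out (limma adjusted p from 0.0519 to 0.0912), and also with scaling to the median at 0.33 and with slide as a block. The call of hira was also lost with scaling to the median. Both read close to 0 without scaling, at -0.075 and -0.031, against the median of -0.42 of all probes there. Of 2 histone genes measured, h4c3 rose by 1.57 ± 0.37 on a cross-hybridising probe, and macroh2a1 stood at 0.0061.

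The other lists gave 5 calls. Prmt5, an arginine methyltransferase, rose by 0.42 ± 0.11 (-0.048 without scaling), and trim28, a corepressor of zinc finger proteins, by 0.54 ± 0.15 (SE, n = 4 each). Mbd4, a glycosylase that binds methylated DNA, fell by 0.60 ± 0.15, and mphosph8, a reader of heterochromatin, by 0.32 ± 0.09 (SE, n = 4 each). The 13th call, outside the rule for naming and named after its value was seen, was that of the condensin gene smc4 at 0.42 (-0.054 without scaling). Single slides and left-out arrays aside, 14 processing settings were run, the main one included. Prmt5 and mbd4 were called in 11 of them, mphosph8 in 10, trim28 in 9 and smc4 in 6. Smc4 was not called with quantile normalization, scaling to the median, the deposited series matrix or slide as a block, among others. In the unpaired comparison, scaled to the 75th percentile, no call was made among 7 acetyltransferase partners or 7 histone ubiquitin and poly-ADP-ribose genes. None was made among 3 genes listed as demethylases, 2 Polycomb genes or 3 SWI/SNF partners either. With the replicate number as a block, and named after their values were seen, 3 genes of these lists passed. They were usp49, a ubiquitin protease, at 0.66 (limma adjusted p = 0.0306, and 0.0586 without the block), riox2, a ribosomal oxygenase, at 0.39 (0.0198 and 0.0545) and arid1b, a SWI/SNF subunit, at -0.63 (0.0343 and 0.0576). Usp49 passed the background filter through the DY7 group, where it was higher (above background on 4 DY7 and 3 control arrays), and its groups overlapped. The groups of arid1b did not overlap, and it passed in 8 of the 14 settings, though not in the main one. It passed unscaled, median-scaled and quantile-normalized, with both normexp corrections and with the deposited series matrix. It also passed among probes above background on all 8 arrays. The unscaled call rested on an SE shared between genes.

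Ruvbl1 and sin3a kept their calls whichever array was left out, with fold changes of 0.91 to 1.12 and of -0.73 to -0.58. Hira, rcor1 and h4c3 kept theirs in 4 of 8 such fits, mbd4, arid4a and vps72 in 3, prmt5, trim28 and smc4 in 2, mphosph8 in 1 and chaf1a in 0. Over all 66 further genes, 7 were called without DY7 1, 2 without DY7 2, 3 without DY7 3 and 11 without DY7 4. The number was 2 without control 1, 10 without control 2, 14 without control 3 and 2 without control 4. Some of these counts include genes outside the 13 calls. Of all probes, 10.4%, 5.38%, 5.87% and 15.3% were called without DY7 1 to 4. Without control 1 to 4 it was 5.65%, 16.4%, 12.5% and 5.39% of all probes.

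**Figure D5:**
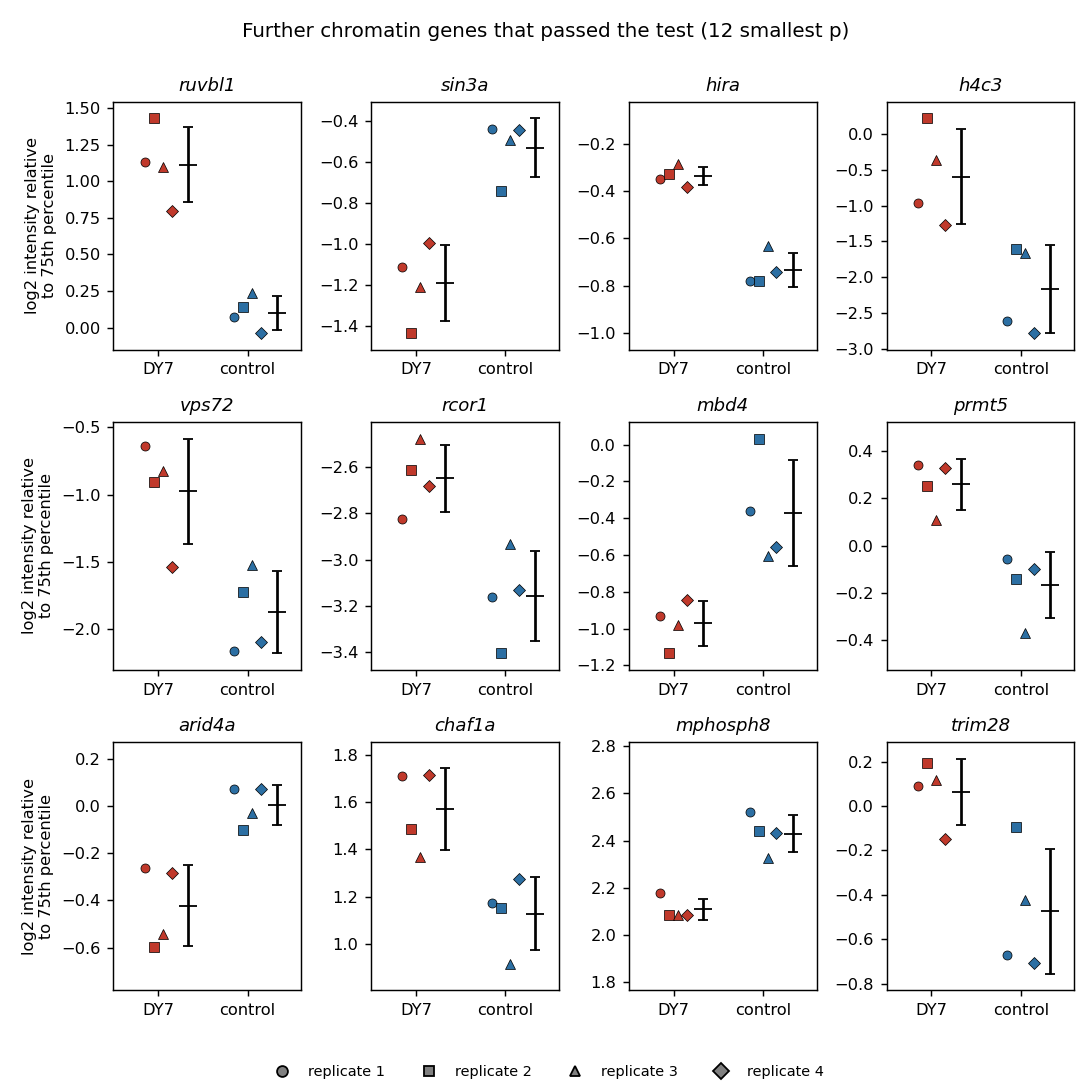
Level of 12 further chromatin genes with a call on each array, as log2 intensity relative to the array's 75th percentile (y axis, a separate range for each gene), DY7 in red on the left and control in blue on the right; symbols mark replicate numbers and bars give mean ± SD of 4 arrays. Groups overlap only for vps72 and trim28 among these genes, picked by p on the same arrays. Ruvbl1 and sin3a show gaps that are wide against their spread.

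Some of the few measured markers of tissues and of dividing cells passed the test, and others did not. Over all named genes the share that passed was 14.3%. Of 29 listed markers of proliferating cells 7 were measured and 3 rose, and their mean level ran from 0.21 to 0.24 on DY7 arrays and from -0.53 to -0.11 on control arrays. Both lens crystallins measured (of 10 listed) fell, with means of -3.49 to -2.96 on DY7 arrays and -2.01 to -0.91 on control arrays. Of 5 liver and gut markers (12 listed) 3 rose, with means of 3.35 to 3.70 on DY7 arrays and 2.86 to 3.11 on control arrays. Of 4 neural and retinal markers (17 listed) 1 fell, with means of 2.65 to 2.82 on DY7 arrays and 2.91 to 2.96 on control arrays. The single muscle and epidermis markers measured, of 14 and 10 listed, both fell, and 1 of 3 blood markers (10 listed) rose. Their part in the results above was not tested.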

How the data were processed

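The deposited scanner files hold intensity per spot on a linear scale, made with Agilent Feature Extraction (10.7.3.1 on slide 1, 10.7.1.1 on slide 2) and corrected for background within each array, per the file headers. The authors also deposited a series matrix of log2 values, used as an alternative. Its columns correlated at 0.986 or more with the log2 processed intensity of their own array and had medians of 5.10 to 5.27; its scaling is not given in the sources used.

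Control spots (1417 of 45220) and spots with an outlier flag were left out, spots of a probe were averaged on log2, and the array's 75th percentile over 32899 probes was subtracted. Of 20321 probes that passed the background filter, 32 emptied by a flag on some array were left out. No spot was saturated. Accessions without versions were matched to a RefSeq table of a current assembly, for names only (5891 probes, 17.9%).

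A two-sided limma fit (version 3.58.1, R 4.3.3; lmFit, then eBayes) compared DY7 with control, and p-values were Benjamini-Hochberg adjusted over 20289 probes. The limma code was tested on simulated data. Members and lists were chosen with earlier results of these data known. Named were all called members, the smallest p of each other prefix and the 12 smallest p among called partners, and family relatives of called members. Deviations from group means correlated at 0.306, 0.107, 0.455 and 0.449 between DY7 and control samples numbered 1 to 4, all over 0.1. The highest for other numbers was 0.305, above the 0.107 of number 2. Numbers 1 and 2 lay on slide 1, and numbers 3 and 4 on slide 2. The highest with another number was 0.237 for numbers 1 and 4 and 0.305 for numbers 2 and 3. With slide as a block 13.5% of all probes passed, against 25.3% with the replicate number as a block. Whether the correlations reflect pairing by number or a shared slide was not tested. The main fit was unpaired, and the replicate number as a block was run as an alternative. The number of arrays limits the precision.

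Alternatives covered scaling, background correction, filter, probe choice, adjustment, slide and replicate blocks, single slides and leaving out each array. Normexp was run on median spot signals with an offset of 50, in place of mean spot signals. The values of 1 member are not reported here, although it stays in the counts.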

Additional observations from a re-analysis of the deposited data

Results flagged for a closer look

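In 104 groups of 4 arrays, from the 40 members and 12 further genes, 3 had an array far from the other 3 past Dixon's 95% critical value, where chance alone would give about 1 group in 20. Hdac5 stood at -0.59 on DY7 2, against 0.011 to 0.024 on the other DY7 arrays, and the pair of spots of its probe there read -0.55 and -0.63. Dnmt3a stood at -0.078 on DY7 3, against -0.50 to -0.45 on the other DY7 arrays. Mphosph8 stood at 2.18 on DY7 1, against 2.09 on each of the others, a gap of small absolute size.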

How the results depend on the processing

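The 6 calls among members became 2 without scaling, 2 with normexp background correction, 2 with normexp after extreme local backgrounds were repaired, 1 with no filter on dim probes (12 members had an unadjusted p under 0.05) and 0 by limma within slide 1 or slide 2 alone (4 and 6 members had an unadjusted p under 0.05), each with 2 arrays a group; leaving out 1 array gave 1 to 7. Among further genes 13 passed, against 5 without scaling (3 of them among the 13), 1 with no filter and 0 by limma within slide 1 or slide 2 (13 and 10 with an unadjusted p under 0.05), and 2 to 14 with an array left out. Over all probes, 719 passed without scaling, 1902 with normexp, 562 with no filter, 6 within slide 1, 0 by limma within slide 2 (3308 with an unadjusted p under 0.05), and 1091 to 3323 with an array left out, against 2867; the cause was not tested. With the replicate number as a block 9 members, 19 further genes and 5124 probes passed. With slide as a block 4 members and 2741 probes passed. Smarca1 kept its call in every alternative other than the single slides, at -1.62 to -0.76. Without scaling the SE was shared between genes, so calls followed the fold change alone, and 39 of 40 members lay below 0. Among the genes named by rule the sign turned there for dnmt1 (-0.040), phf21b (-0.20), tet2 (-0.086), setd9 (-0.21), hira (-0.075), prmt5 (-0.048) and chaf1a (-0.031), for tet2 within slide 2 (-0.024), and for cbx2 without DY7 3 (0.023), where leaving out 1 array gave -0.15 to 0.023. Each member had 1 named probe, so averaging probes changed none. Signal close to background limits the dim probes, such as those of prdm15 and hdac9.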
